A study of Mus musculus with 8 samples.

Results

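The genes described are 31 named components of the piRNA pathway and of germ granules, listed by name for what they are known to do in male germ cells. Of these, 30 have a row among the 17127 genes measured in mouse testis, and Piwil4 is not analysed here. In Iqch mutant testis their mRNA levels moved little. Mael, Gtsf1, Gtsf1l, Tdrd6 and Tdrd7 fell by 10.5% to 19.6%, whereas Prmt5, Pnldc1, Wdr77 and Tdrd3 rose by 17.0% to 26.8% on the deposited scale, and the other 21 did not pass the test. None of the 30 changed by more than 2-fold, beside 1734 of the 17126 genes tested on the deposited scale. The 5 decreases were also found with a second scaling of the libraries, and the 4 increases were not. That scaling called 6 more of the 30 lower, Piwil1, Ddx4, Rnf17, Stk31, Pld6 and Henmt1. This made 11 lower in all (36.7%) and 0 higher, beside 25.1% and 27.0% of all genes tested. On the deposited scale 30.0% of the 30 were called, beside 50.4% of all genes. Of the 11, 7 had at least 200 CPM, a level at which 54.4% of all genes were called lower on the deposited scale. That share was not counted after size factors.

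RNA-seq was carried out on whole testes, with all their germ and somatic cells, of males aged 4 months, 4 of them wild type and the others homozygous for a mutation of Iqch, and every library came from a single mouse. The mutants carried the genotype Iqch-/- and came from CRISPR-Cas9 editing of exon 19. A pair of lines was made, with small deletions in that exon. The labels name no line, and the study's coverage plot of its RNA-seq reads is of the line mu7, which carries the longer deletion. Homozygous males were infertile with disorganized seminiferous tubules. The libraries analysed were those of wild-type mice 1 to 4 and mutant mice 1, 2 and 4. The values are CPM (a gene's reads scaled so that each library sums to 1000000), from 32859673 to 37551057 reads per wild-type library and 32064384 to 34806129 per mutant library. A count of 3 reads corresponded to 0.0799 to 0.0936 CPM, far below the level of every gene named here. Iqch itself (ENSMUSG00000037801, chromosome 9, 63328687 to 63509775) had 217, 206, 216 and 193 CPM in the wild type and 67.7, 64.8 and 69.2 CPM in the mutant, a log2 fold change of -1.63 ± 0.05 (SE, limma FDR 1.9e-10), so the mutant libraries carried less of the targeted gene's mRNA.

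piRNAs are small RNAs of the germ line that guide PIWI proteins, a branch of the Argonaute family, to complementary RNAs. Long precursor transcripts are unwound by helicases, cut at the surface of mitochondria, loaded into a PIWI protein, trimmed at the 3′ end and methylated there. Much of this takes place in perinuclear granules without a membrane, the intermitochondrial cement of spermatocytes and the chromatoid body of round spermatids, which are built on Tudor domain proteins that bind methylated arginines of the PIWI proteins. In adult testis the pathway is active mainly from pachytene spermatocytes to round spermatids, where it is needed for the silencing of retrotransposons and for spermiogenesis.

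Promoter windows were examined because the genes of pachytene piRNA production are known to share transcription factors, among them MYBL1 and TCFL5. Each window held 300 bases, 250 before and 50 after an annotated RefSeq start (GRCm38.p6). At least 1 window was found for 25 of the 31 genes. They were searched on both strands for the E-box CACGTG, a site of basic helix-loop-helix factors, for the MYB core AACNG and for the E2F site TCCCGC. The windows of 4 genes are shown, those of Mael, which had the highest level per kb of exon and fell, of Gtsf1l, which had the largest decrease, of Prmt5, which had the largest increase, and of Piwil1, whose window held 2 E-boxes. Each is written 5′ to 3′ on the strand of the gene, and capitals mark every match to any of the 3 motifs.
Mael, chr1:166238695-166238994, minus strand: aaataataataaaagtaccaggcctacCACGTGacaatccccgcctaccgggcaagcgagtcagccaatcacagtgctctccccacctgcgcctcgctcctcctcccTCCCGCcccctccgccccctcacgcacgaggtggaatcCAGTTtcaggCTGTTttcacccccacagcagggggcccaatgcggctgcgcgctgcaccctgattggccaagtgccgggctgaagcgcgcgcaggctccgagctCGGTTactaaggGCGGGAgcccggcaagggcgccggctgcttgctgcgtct
Piwil1, chr5:128735996-128736295, plus strand: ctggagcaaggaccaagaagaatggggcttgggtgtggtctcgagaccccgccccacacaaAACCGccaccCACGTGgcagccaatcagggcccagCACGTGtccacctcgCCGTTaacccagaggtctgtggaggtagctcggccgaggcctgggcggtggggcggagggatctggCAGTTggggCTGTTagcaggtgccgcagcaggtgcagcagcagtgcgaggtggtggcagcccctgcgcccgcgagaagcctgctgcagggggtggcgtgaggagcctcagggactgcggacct
Gtsf1l, chr2:163089552-163089851, minus strand: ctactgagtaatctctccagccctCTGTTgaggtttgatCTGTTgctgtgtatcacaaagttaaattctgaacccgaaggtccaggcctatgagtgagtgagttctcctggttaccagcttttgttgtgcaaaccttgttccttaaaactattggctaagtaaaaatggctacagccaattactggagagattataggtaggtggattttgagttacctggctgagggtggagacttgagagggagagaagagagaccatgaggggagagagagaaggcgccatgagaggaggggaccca
Prmt5, chr14:54517421-54517720, minus strand: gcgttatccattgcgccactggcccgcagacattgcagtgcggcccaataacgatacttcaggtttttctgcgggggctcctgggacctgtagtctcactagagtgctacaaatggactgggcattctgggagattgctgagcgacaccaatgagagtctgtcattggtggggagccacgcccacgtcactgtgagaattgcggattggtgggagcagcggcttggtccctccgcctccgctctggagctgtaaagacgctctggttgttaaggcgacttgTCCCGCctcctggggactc
The E-box was found in windows of 10 of the 25 genes (40.0%), against 8.09% of 27025 genes with a window and 11.0% of the 11937 genes of the CPM table that had one. The 10 genes were Mael, Wdr77, Piwil1, Fkbp6, Stk31, Pld6, Tdrd9, Ddx4, Mov10l1 and Tdrd1. In Mael it began 223 bases before the start, in Piwil1 179 and 154 bases before it, in Ddx4 29 bases and in the nearest window of Tdrd1 11 bases before it. The MYB core is short and was found in 20 of the 25 genes (80.0%), beside 82.4% of all genes with a window. The E2F site was in 9 of 25 (36.0%), beside 22.0% of all genes with a window and 35.8% of those of the CPM table. The E-box did not separate the genes by their calls on the deposited scale. It was present in 1 of the 4 decreased genes with a window, in 1 of the 3 increased genes and in 8 of the 17 that did not pass the test. After size factors Piwil1, Stk31, Pld6 and Ddx4 were called lower beside Mael, and the other E-box genes were not called. The genes lower on that scale whose windows held no E-box included Gtsf1l, Tdrd7 and Henmt1. They also included either Gtsf1 or Tdrd6, only 1 of which had a window. A motif match is a description of the letters in a window and not a measured binding site.

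The question put to each gene was whether its level in the 3 mutant libraries differed from that in the 4 wild-type libraries by more than the spread between mice. Genes were tested with limma on log2(CPM + 0.1) over 17126 genes and called at an FDR (Benjamini-Hochberg adjusted p over all of them) under 0.01. Of the 30 genes, 9 were called (30.0%), 4 of them higher and 5 lower, while 50.4% of all genes tested were called, 36.3% higher and 14.2% lower. The share of called piRNA pathway genes was below this background. Without mutant 2 or without mutant 4, 2 of the 30 (Prmt5 and Pnldc1) were called higher, and the lower calls numbered 4 to 5 over the 7 fits with 1 library left out. Their changes were also small, with a range from -0.31 to 0.34 on the log2 scale and a median absolute change of 0.14, beside 0.28 over all genes, and 27 of the 30 had a smaller absolute change than the median gene. The median log2 fold change was 0.02, beside 0.12 over all genes. Wild-type and mutant values did not overlap for 14 of the 30 genes, 7 in each direction, and for 62.3% of all genes tested.

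Since the median gene was higher in the mutant libraries, the test was repeated after dividing each library by its median-of-ratios size factor, which sets the typical gene equal between libraries. This moved every log2 fold change by about -0.13, and the median of all genes to -0.01. Of all genes, 52.1% were then called, 27.0% higher and 25.1% lower. Among the piRNA pathway genes, limma called 11 lower and 0 higher, and the median became -0.11. At an unadjusted p under 0.05, 14 were lower and 2 higher, Prmt5 and Pnldc1. Among all genes this looser threshold takes in at least the 52.1% called at an FDR under 0.01, and its exact share was not counted. The 11 comprised the 5 decreased genes and 6 more, Piwil1, Ddx4, Rnf17, Stk31, Pld6 and Henmt1. A total of 15 genes were called under neither scaling. Both scalings place the groups relative to each other, and neither gives an amount of RNA per testis. In whole testis, fewer cells of a type and less RNA per cell cannot be told apart.

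**Figure D1:**
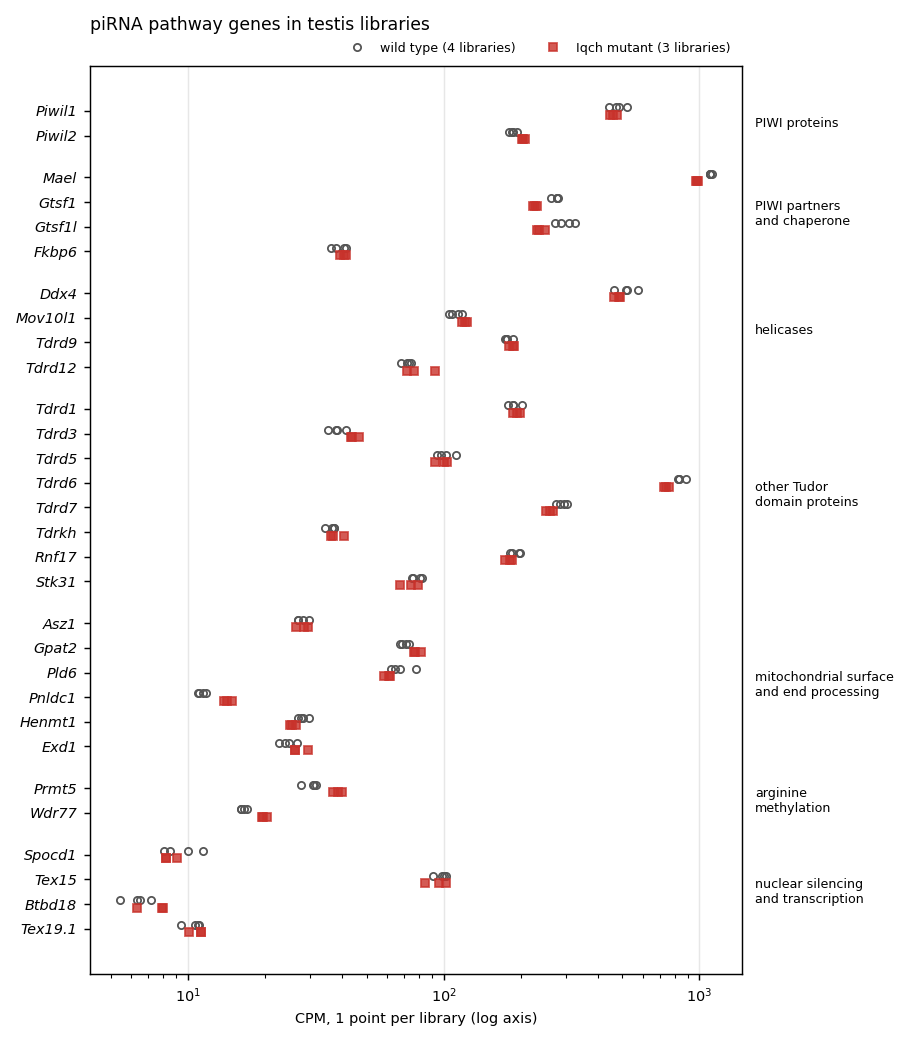
CPM of the 30 measured genes (horizontal log axis), grouped by role, with open circles for the 4 wild-type libraries and squares for the 3 Iqch mutant libraries. The mutant squares lie within or close to the wild-type circles for most genes. They stand below them for the called genes Mael, Gtsf1, Gtsf1l, Tdrd6 and Tdrd7, and above them for Prmt5, Pnldc1, Wdr77 and Tdrd3. Without a call, they also stand below for Pld6 and Henmt1 and above for Piwil2, Mov10l1 and Gpat2.

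Among the PIWI proteins, Piwil1 (ENSMUSG00000029423, chromosome 5, 128779588 to 128832538), which encodes MIWI, the PIWI protein of pachytene spermatocytes and round spermatids, had 472, 487, 445 and 522 CPM in wild-type mice 1 to 4 and 448, 475 and 460 CPM in mutants 1, 2 and 4. All 3 mutant values lay inside the wild-type range. The log2 fold change was -0.06 ± 0.05 (SE, FDR 0.315), and its 95% interval ran from a decrease of 11.1% (-11.1%) to an increase of 3.48%. After size factors it was -0.20 (FDR 0.0051) and was called lower. The study named Piwil1 among its differentially expressed genes, from edgeR and DESeq2 at an FDR under 0.01. Those count models were not run here. Piwil2 (ENSMUSG00000033644, chromosome 14, 70609365 to 70666832), which encodes MILI, present from spermatogonia onwards, had 194, 185, 187 and 181 CPM in the wild type and 202, 204 and 208 CPM in the mutant. Each mutant value was above each wild-type value, but with a log2 fold change of 0.13 ± 0.04 (FDR 0.0108) the gene was just short of the threshold, and after size factors it was level (-0.0011, FDR 0.982). Without wild-type mouse 1, Piwil2 passed it (0.15, FDR 0.0080). The ratio of Piwil1 to Piwil2, which no scaling of the libraries alters, was 2.43, 2.64, 2.38 and 2.89 in the wild type and 2.22, 2.32 and 2.21 in the mutant. It was lower in every mutant library than in every wild-type library, a comparison chosen after the values were seen and given without a test.

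Of the PIWI partners, 3 of 4 were called lower, beside 14.2% of all genes on the deposited scale. Mael (ENSMUSG00000040629, chromosome 1, 166028770 to 166066331) encodes a granule protein required for retrotransposon silencing and meiosis. It had 1095, 1097, 1123 and 1100 CPM in the wild type and 967, 977 and 983 CPM in the mutant. The means of 1104 ± 13.0 (SD, n = 4) and 975 ± 8.04 (SD, n = 3) differed by -11.6%, a log2 fold change of -0.18 ± 0.03 (limma FDR 4.6e-04). The groups were tight and did not overlap. Gtsf1 (ENSMUSG00000022487, chromosome 15, 103310407 to 103338897) encodes a zinc finger protein that helps PIWI proteins cleave their targets. Its values were 263, 278, 278 and 281 CPM in the wild type and 229, 224 and 231 CPM in the mutant. This was a decrease of 17.1% (-17.1%), with a log2 fold change of -0.27 ± 0.04 (limma FDR 5.8e-05), the lowest FDR of the 30 genes. Its paralogue Gtsf1l (ENSMUSG00000070708, chromosome 2, 162928954 to 162931875) had 288, 325, 272 and 309 CPM in the wild type and 237, 250 and 232 CPM in the mutant. Here the wild-type libraries were more widely spread, and still all 3 mutant values lay below all 4. The log2 fold change of -0.31 ± 0.06 (limma FDR 3.9e-04), a change of -19.6%, was the largest decrease of the 30 genes. After size factors the 3 genes stood at -0.31, -0.41 and -0.45, and they were called in every fit with 1 library left out. Gtsf1l and Gtsf1 kept a ratio of 0.979 to 1.17 in the wild type and 1.00 to 1.11 in the mutant. Fkbp6, a co-chaperone of piRNA loading, had 36.4 to 41.7 CPM in the wild type and 39.5 to 41.4 CPM in the mutant and did not pass (0.05, FDR 0.49; -0.09 after size factors).

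None of the 4 helicases passed on the deposited scale in limma, and 1 of them, Mov10l1, had an unadjusted p under 0.05. Among all genes this looser threshold takes in at least the 50.4% called at an FDR under 0.01. Its exact share was not counted. Ddx4, the germ cell RNA helicase also called mouse vasa homologue, had 519, 515, 577 and 462 CPM in the wild type and 465, 487 and 489 CPM in the mutant. The groups overlapped, with a log2 fold change of -0.11 (FDR 0.145), and the gene was lower after size factors (-0.24, FDR 0.0041). Mov10l1, which feeds piRNA precursors into processing, had 105 to 118 CPM in the wild type and 118, 121 and 124 CPM in the mutant, without overlap. Its log2 fold change of 0.12 did not pass (FDR 0.0439) and was -0.01 after size factors. Tdrd9, a helicase with a Tudor domain that works with the nuclear PIWI protein, stood at 0.05 (FDR 0.303) and at -0.08 after size factors. Tdrd12, a helicase-like partner of MILI, had 67.9 to 74.5 CPM in the wild type and 71.6, 76.4 and 92.1 CPM in mutants 1, 2 and 4, so that mutant 4 alone stood well above the rest (0.15, FDR 0.0994).

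Among the other 8 Tudor domain genes, Tdrd6 and Tdrd7 fell, Tdrd3 rose on the deposited scale, and 5 did not pass. On that scale 50.4% of all genes were called. Tdrd6 (ENSMUSG00000040140, chromosome 17, 43926226 to 43941190), a scaffold of the chromatoid body that binds MIWI, had 828, 832, 885 and 824 CPM in the wild type and 725, 741 and 761 CPM in the mutant. The change of -11.8%, a log2 fold change of -0.18 ± 0.04 (limma FDR 0.0013), was called in every fit with 1 library left out and stood at -0.32 after size factors. Tdrd7 (ENSMUSG00000035517, chromosome 4, 45965328 to 46035307), which is needed for the remodelling of these granules, had 303, 285, 295 and 276 CPM in the wild type and 259, 250 and 268 CPM in the mutant. The groups did not overlap, but they lay close together. The log2 fold change was -0.16 ± 0.04 (limma FDR 0.0062), a change of -10.5%, and -0.30 after size factors. This call was near the threshold: it was lost when wild-type mouse 1, 2 or 3 or mutant 1 or 2 was left out, with an FDR between 0.0131 and 0.0328 and log2 fold changes from -0.17 to -0.14.

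Tdrd3 (ENSMUSG00000022019, chromosome 14, 87653452 to 87782953), a Tudor protein that reads methylated arginines outside the piRNA pathway as well, had 35.2, 38.4, 41.4 and 38.0 CPM in the wild type and 43.6, 46.8 and 43.8 CPM in the mutant. Its log2 fold change was 0.23 ± 0.06 (limma FDR 0.0066), an increase of 17.0%. The call was lost when wild-type mouse 1, 2 or 4 or any of the 3 mutants was left out, with an FDR between 0.0117 and 0.0346 and values from 0.19 to 0.25, and it was lost after size factors (0.09, FDR 0.198). Tdrd1, the scaffold that binds MILI, stood at 0.03 (FDR 0.549) and at -0.10 after size factors. Tdrkh, which recruits the trimming enzyme at mitochondria, stood at 0.06 (FDR 0.412) and at -0.08 after size factors, but up to 2255 bases of its exons overlap the spermatid gene Oaz3 on the opposite strand (1283 CPM in the wild type). Tdrd5, needed for the assembly of granules, was at -0.04 (FDR 0.625). Rnf17, a component of a separate germ cell granule, had 181 to 199 CPM in the wild type and 173 to 185 CPM in the mutant, with a log2 fold change of -0.08 (FDR 0.14). Stk31, which joins a Tudor domain to a kinase domain, had 75.2 to 82.4 CPM and 67.3 to 79.3 CPM, with a log2 fold change of -0.10 (FDR 0.189). In both of these genes the groups overlapped as deposited, and both were called lower after size factors, at -0.22 (FDR 0.0011) for Rnf17 and -0.23 (FDR 0.0034) for Stk31.

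The 6 genes of the mitochondrial surface and of end processing held 1 call on the deposited scale, on which 50.4% of all genes were called. Pnldc1 (ENSMUSG00000073460, chromosome 17, 13107608 to 13129147), the exonuclease that trims piRNA 3′ ends, had 11.5, 11.1, 11.0 and 11.7 CPM in the wild type and 13.8, 14.9 and 14.3 CPM in the mutant. Each group was tight and the gap between them was clear, with an increase of 26.2% and a log2 fold change of 0.34 ± 0.07 (limma FDR 0.0016). After size factors it was 0.20 (FDR 0.0265) and was not called. Pld6, the mitochondrial endonuclease linked to the formation of piRNA 5′ ends, had 64.8, 67.5, 62.4 and 78.1 CPM in the wild type and 61.9, 61.0 and 58.5 CPM in the mutant. Its groups did not overlap, wild-type mouse 4 stood above the other 3, and the log2 fold change was -0.17 (FDR 0.051; -0.30 and FDR 0.0022 after size factors). Up to 160 bases of a Pld6 exon overlap the oppositely oriented gene Mprip, at 660 CPM in the wild type. The strand setting of the counting is not stated. Henmt1, which methylates piRNA 3′ ends, had 26.9 to 29.7 CPM in the wild type and 25.1 to 26.6 CPM in the mutant, also without overlap, with a log2 fold change of -0.12 (FDR 0.0848; -0.26 and FDR 0.0022 after size factors). Gpat2, an acyltransferase of the outer mitochondrial membrane that binds MILI, was higher in every mutant library, at 76.7 to 81.7 CPM against 67.7 to 73.0 CPM. It missed the threshold with a log2 fold change of 0.16 (FDR 0.0109), passed it without wild-type mouse 4 (0.18, FDR 0.0069) and was at 0.03 after size factors. Asz1, a mitochondrial anchor of the granules, was at 0.01 (FDR 0.919; -0.13 after size factors), and Exd1, a partner of TDRD12, at 0.15 (FDR 0.0923).

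Prmt5 and Wdr77 encode the enzyme and the cofactor of the methylosome, which places the symmetric arginine marks that Tudor domains read. Both rose on the deposited scale, on which 36.3% of all genes were called higher. Prmt5 (ENSMUSG00000023110, chromosome 14, 54744636 to 54754982) had 31.7, 27.7, 30.9 and 31.2 CPM in the wild type and 36.9, 40.2 and 38.5 CPM in the mutant. The increase of 26.8%, a log2 fold change of 0.34 ± 0.06 (limma FDR 4.3e-04), was the largest of the 30 genes. After size factors it was 0.21 and lay just outside the threshold (FDR 0.0101). Wdr77 (ENSMUSG00000000561, chromosome 3, 105866685 to 105877353) had 16.2, 17.0, 16.6 and 16.2 CPM in the wild type and 19.4, 19.6 and 20.3 CPM in the mutant. The groups were well apart, with a log2 fold change of 0.26 ± 0.06 (limma FDR 0.0033), which was 0.13 after size factors (FDR 0.0957). Its call was also lost without mutant 2 (0.27, FDR 0.0101) or mutant 4 (0.24, FDR 0.0192). The ratio of Prmt5 to Wdr77 was 1.63 to 1.96 in the wild type and 1.89 to 2.05 in the mutant, so these ranges overlapped. Up to 330 bases of a Wdr77 exon overlap the oppositely oriented gene Atp5pb, at 64.4 CPM in the wild type, and without a stated strand setting their reads cannot be told apart. In all, 6 of the 30 genes (Wdr77, Tdrkh, Pld6, Gpat2, Exd1 and Tdrd5) share exon bases with another gene of the table.

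The 4 genes of nuclear silencing and of transcription did not pass in limma under either scaling, although after size factors Spocd1 and Tex15 were lower at an unadjusted p under 0.05. Among all genes on that scale this threshold takes in at least the 52.1% called at an FDR under 0.01. Its exact share was not counted. Spocd1 and Tex15, which act with the nuclear PIWI protein in the methylation of retrotransposons in fetal germ cells, had log2 fold changes of -0.15 (FDR 0.284) and -0.06 (FDR 0.407). Spocd1 was present at 8.11 to 11.4 CPM in the wild type and 8.20 to 9.11 CPM in the mutant, and Tex15 at 90.9 to 102 CPM and 84.4 to 102 CPM. Btbd18, which promotes the transcription of pachytene piRNA precursors, was present at 5.42 to 7.18 CPM in the wild type and 6.35 to 8.02 CPM in the mutant, and its log2 fold change was 0.22 (FDR 0.139). Tex19.1, a repressor of retrotransposons, was at 0.05 (FDR 0.65; -0.09 after size factors). For the 21 genes that did not pass on the deposited scale, the 95% intervals reached from -24.6% to 40.0%, with the widest in Spocd1 and Btbd18. For 16 of them the interval stayed within 0.3 of no change on the log2 scale. These bounds hold for the deposited scale only, since 6 of the 21 were called lower after size factors.

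**Figure D2:**
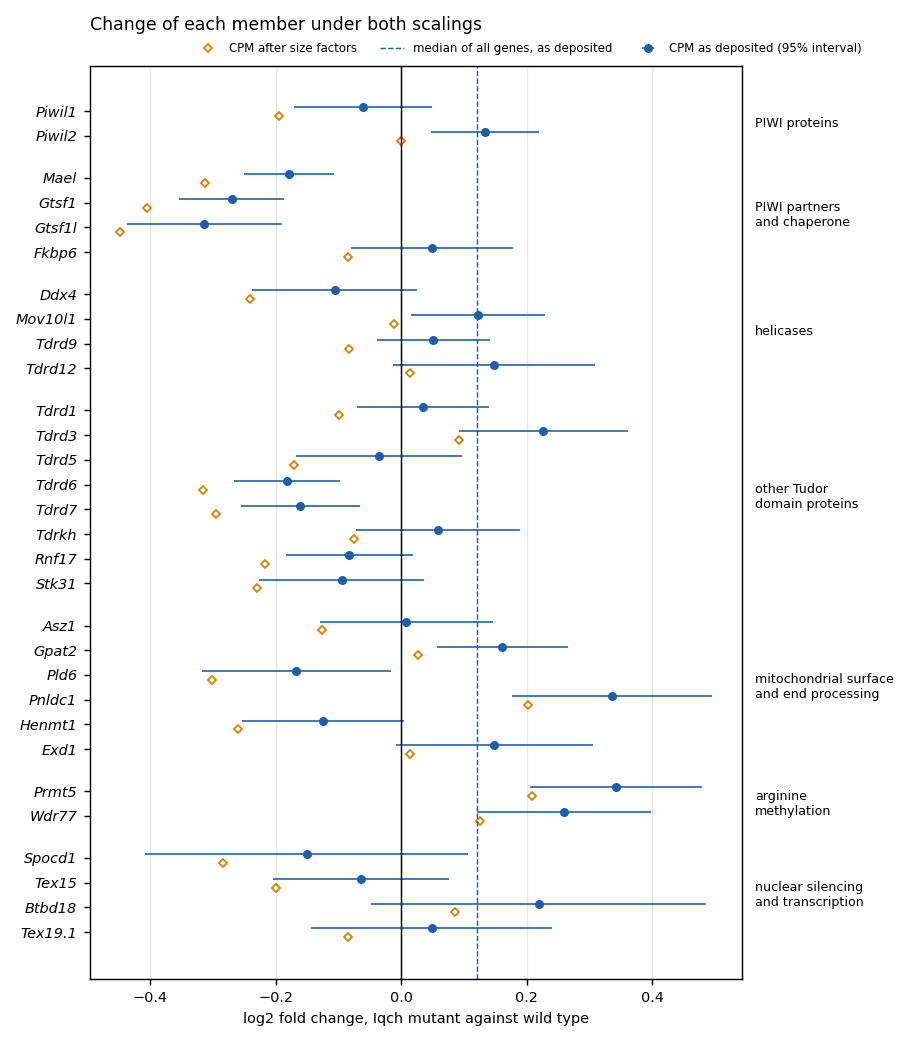
Log2 fold change of each gene, Iqch mutant against wild type, grouped by role. Blue points and bars give the deposited CPM with 95% intervals, orange diamonds the values after size factors, and the dashed line the median of all genes as deposited (0.12); the diamonds lie about 0.13 to the left of the points, so that genes near 0 change sign between the scalings while Mael, Gtsf1, Gtsf1l, Tdrd6 and Tdrd7 stay on the negative side.

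On the deposited scale, direction followed expression level among these genes. The 7 with a mean of at least 200 CPM over the libraries were Mael, Tdrd6, Ddx4, Piwil1, Gtsf1, Gtsf1l and Tdrd7. All 7 had negative log2 fold changes and 5 were called lower. Of the 11 genes between 50 and 200 CPM limma called 0, while 3 were higher and 1 lower at an unadjusted p under 0.05. Of the 12 under 50 CPM 4 were called higher and 0 lower, and at an unadjusted p under 0.05 these were also 4 and 0. No share of all genes at the unadjusted threshold was counted for these classes. The table as a whole had the same order. Of its 1053 genes at 200 CPM or more, 54.4% were called lower and 7.88% higher, with a median log2 fold change of -0.17. Among 3570 genes between 50 and 200 CPM these shares were 20.8% and 26.5%, and among 12503 genes under 50 CPM 8.89% and 41.4%, with a median of 0.22. At 200 CPM or more, 873 of the 1053 genes had a negative log2 fold change. After size factors the 7 abundant piRNA pathway genes were still negative and all of them were called lower, whereas the 4 higher calls were lost. The share of all genes at 200 CPM or more called lower on that scale was not counted, so these 7 calls have no background beside them.

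**Figure D3:**
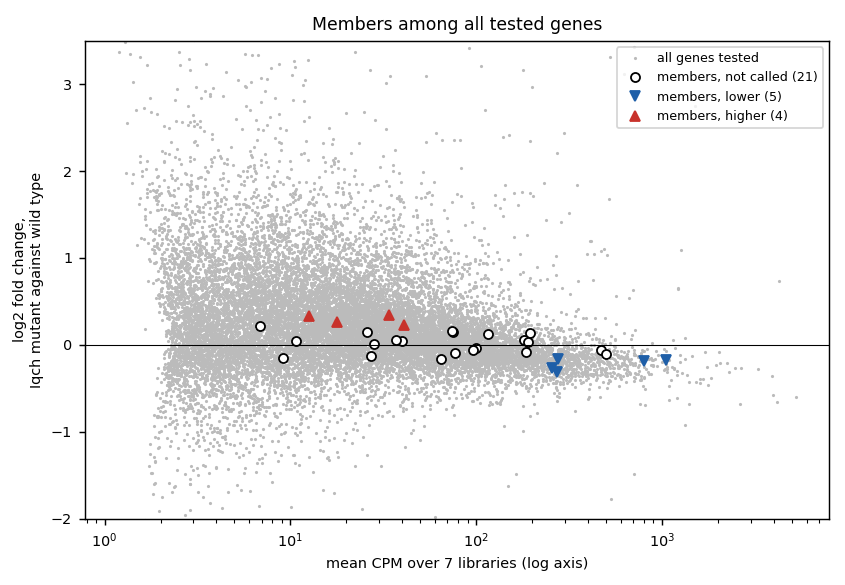
Log2 fold change (vertical axis) against mean CPM over the 7 libraries (horizontal log axis) for all genes tested, in grey, and for the 30 piRNA pathway genes, marked by their call. The axis was limited to -2 to 3.5, which leaves out 77 genes; the cloud of grey points bends below 0 at high CPM, and the called genes of the pathway lie within it, the 5 lower ones at the right and the 4 higher ones at the left.

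Summed over the 30 genes, the pathway took 5384, 5428, 5499 and 5415 CPM in the wild type, 0.538% to 0.550% of a library, and 4945, 5104 and 5125 CPM in the mutant, 0.495% to 0.512%. The sum was lower in each mutant library than in each wild-type library. Mael, Tdrd6, Ddx4 and Piwil1 together made up 53.7% to 55.1% of it in the wild type and 52.5% to 52.7% in the mutant, so the sum mainly follows these 4 genes.

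Levels were compared between genes as CPM per kb of annotated exon. The length joins the exons of all annotated transcripts of a gene, which can place genes with many of them lower in this order. In the wild type Mael was highest, at 631 ± 7.41 CPM per kb (SD, n = 4), followed by Gtsf1l at 276 ± 21.5, Ddx4 at 141 ± 12.8, Gtsf1 at 129 ± 3.75, Tdrd6 at 119 ± 4.09 and Piwil1 at 104 ± 6.94 CPM per kb. The ranges of Ddx4 and Gtsf1, and of Gtsf1 and Tdrd6, overlapped between libraries, so their order is not fixed by these data. A wide gap separated these 6 genes from the next 4, Tdrd7 and Tdrd1 at 34.6 CPM per kb each, Tdrd9 at 32.8 and Piwil2 at 31.8, which overlapped one after the other. At the other end stood Pnldc1 at 3.46, Wdr77 at 3.20, Spocd1 at 2.57 and Btbd18 at 1.35 CPM per kb. The genes of mitochondrial anchoring and end processing lay between 3.46 and 12.5 CPM per kb, below both PIWI genes. In the mutant, the leading 6 were the same genes, at 558, 222, 131, 107, 105 and 99.3 CPM per kb in that order.

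**Figure D4:**
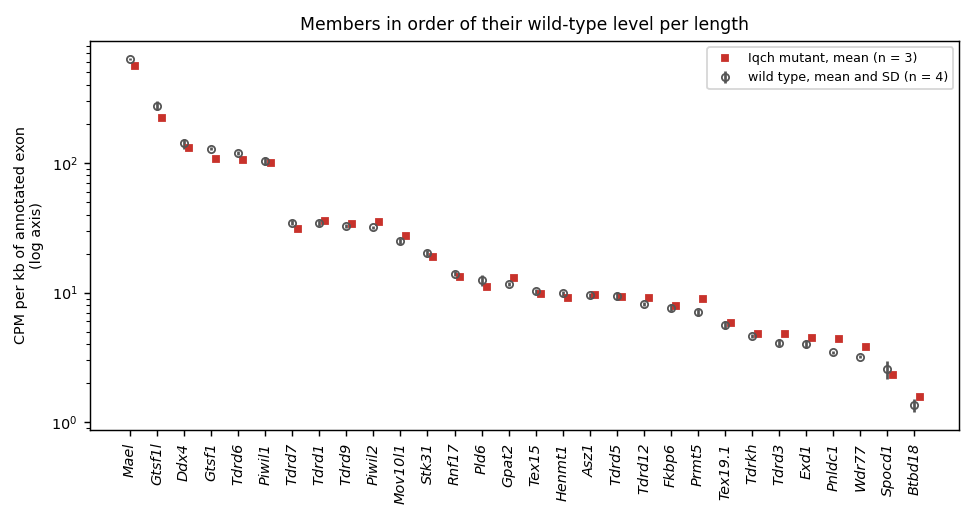
CPM per kb of annotated exon (vertical log axis) for the 30 genes in the order of their wild-type mean, with open circles and bars for the wild-type mean and SD (n = 4) and squares for the mutant mean (n = 3). The level runs from 631 CPM per kb for Mael to 1.35 CPM per kb for Btbd18, with a drop between Piwil1 and Tdrd7, and the mutant squares follow the wild-type order closely.

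A further 30 genes that act on or beside the pathway were listed, and 28 were tested; Nanos2 and Nanos3 are not analysed here. On the deposited scale 12 were called higher and 5 lower, 60.7% in all beside the 50.4% of all genes, with a median log2 fold change of 0.14. After size factors 4 were called higher and 9 lower, with a median of 0.00. This was 46.4% in all, beside 52.1% of all genes, of which 27.0% were higher and 25.1% lower. The largest increase was that of Snd1, a Tudor domain nuclease of RNA silencing complexes, from 21.5 ± 1.62 (SD, n = 4) to 38.3 ± 0.83 CPM (SD, n = 3), a log2 fold change of 0.84 (limma FDR 4.3e-07; 0.70 after size factors). It was larger than that of any of the 30 piRNA pathway genes. Ubr2, a ubiquitin ligase that binds TEX19 proteins, rose from 28.1 to 44.0 CPM (0.64; 0.51 after size factors). Dicer1, which cuts microRNA precursors, rose from 26.9 to 36.6 CPM (0.44; 0.31 after size factors), and Ago2, the Argonaute of the microRNA pathway, from 31.1 to 41.0 CPM (0.40; 0.26 after size factors). These 4 were the genes called higher under both scalings. Dnmt3c, which methylates retrotransposon promoters in fetal male germ cells, was at 2.23 ± 0.249 (SD, n = 4) and 3.28 ± 0.111 CPM (SD, n = 3). It was called on the deposited scale (0.55, limma FDR 0.0057), but not after size factors (0.42, FDR 0.0238), and it kept its call in only 2 of 7 fits with 1 library left out, those without wild-type mouse 1 or 3. In the other 5, without wild-type mouse 2 or 4 or any of the mutants, its log2 fold change was 0.47 to 0.57 with an FDR of 0.0106 to 0.0234.

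All 5 genes called lower kept that call after size factors. Fxr1, an RNA-binding protein that activates stored mRNAs in spermatids, fell from 700 ± 32.6 (SD, n = 4) to 576 ± 4.04 CPM (SD, n = 3), with a log2 fold change of -0.28 (limma FDR 7.2e-05). Kif17, a motor protein found at the chromatoid body, fell from 485 to 400 CPM (-0.28), and Akap1, a mitochondrial anchoring protein that binds RNA, from 793 to 666 CPM (-0.25). Ddx25, a helicase of the chromatoid body needed for spermatid development, had 467, 471, 476 and 445 CPM in the wild type and 415, 379 and 398 CPM in the mutant (-0.23, limma FDR 4.6e-04). Tcfl5, a transcription factor of pachytene spermatocytes, fell from 325 to 280 CPM (-0.21). Mybl1, the master transcription factor of pachytene piRNA genes, had 59.9, 62.2, 68.7 and 61.6 CPM in the wild type and 51.6, 60.4 and 56.9 CPM in the mutant. The mutant values were mostly the lower ones, but 1 of them overlapped the wild type, and the log2 fold change of -0.16 did not pass (FDR 0.0406), while after size factors it did (-0.30, FDR 8.8e-04).

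Markers of the testis cell types moved in the same libraries, and their calls are given first on the deposited scale. On it 36.3% of all genes were called higher and 14.2% lower. The 10 markers of elongating spermatids were all called lower, with a median log2 fold change of -0.63 and a summed level of 25819 to 27344 CPM in the wild type and 16580 to 18907 CPM in the mutant. Of 7 round spermatid markers 4 were called lower (median -0.20, summed 1195 to 1290 CPM against 1062 to 1134 CPM). Of 8 spermatocyte markers 1 was called higher and 1 lower (median -0.12), with overlapping sums of 795 to 912 CPM and 753 to 832 CPM. Of 7 spermatogonial markers 4 were called higher (median 0.31, summed 112 to 124 CPM against 166 to 193 CPM). Kit contributed most to the higher sum, with means of 21.7 CPM in the wild type and 62.2 CPM in the mutant. It alone of these markers kept its call after size factors. The somatic markers were mostly higher. In Sertoli cells 6 of 6 were (median 0.89, summed 971 to 1054 CPM against 2046 to 2179 CPM), in Leydig cells 5 of 6 (median 1.25, 997 to 1202 CPM against 4214 to 4393 CPM) and in macrophages 5 of 5 (median 1.55, 47.3 to 53.5 CPM against 101 to 122 CPM). In endothelial cells 2 of 5 were called higher (median 0.63, 30.6 to 34.5 CPM against 44.0 to 46.4 CPM) and in peritubular myoid cells 1 of 4 (median 0.06, 66.2 to 90.1 CPM against 76.5 to 102 CPM). No tested marker was at 0 in any library. After size factors the calls of germ cell markers shifted downwards, while 27.0% of all genes were called higher and 25.1% lower. Spermatogonial markers then held 1 higher call (median 0.18), spermatocyte markers 4 lower calls (median -0.26), round spermatid markers 7 of 7 lower (median -0.33) and elongating spermatid markers 10 of 10 lower (median -0.76). Of the somatic markers, 5 of 6 in Sertoli cells, 5 of 6 in Leydig cells, 5 of 5 in macrophages and 1 of 4 in peritubular myoid cells were called higher, the last with a median of -0.07, and in endothelial cells 2 were called higher and 1 lower. On the deposited scale the 5 decreased piRNA pathway genes had log2 fold changes of -0.31 to -0.16. The part of cell composition in these changes was not tested.

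**Figure D5:**
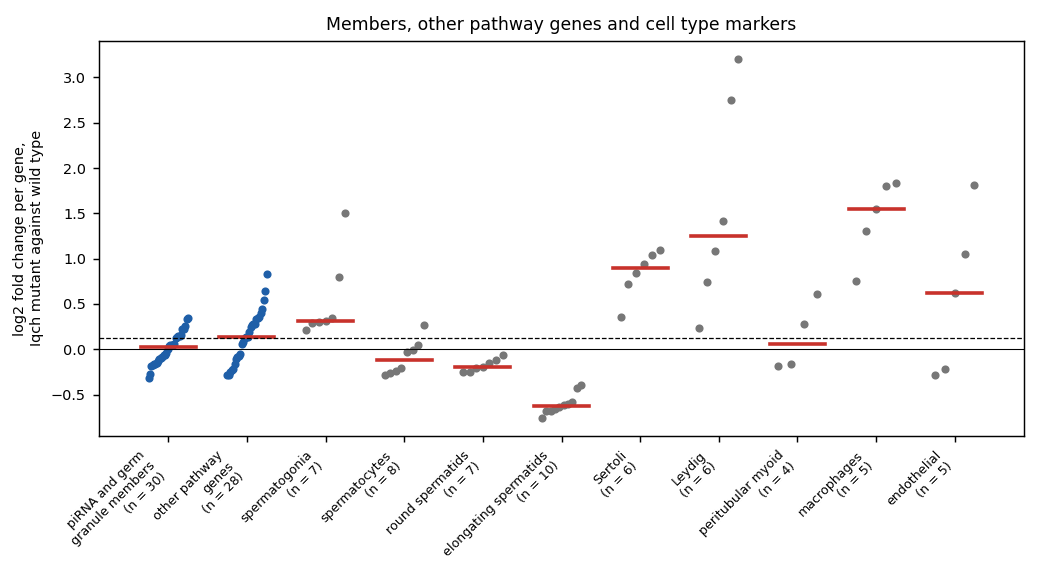
Log2 fold change per gene, Iqch mutant against wild type, for the piRNA pathway genes, the other pathway genes and the marker genes of 9 testis cell types, with 1 point per gene, a red bar at the median of each list and the number of genes under it; the solid line marks 0 and the dashed line the median of all genes (0.12). The piRNA pathway genes lie between -0.31 and 0.34, on the deposited scale, and their median of 0.02 is nearer to 0 than the medians of elongating spermatid (-0.63), Sertoli cell (0.89), Leydig cell (1.25) and macrophage markers (1.55).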

How the data were processed

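RNA was taken from whole testes, 1 library per mouse. The authors used Trimmomatic for trimming, Subread for mapping (GRCm39) and featureCounts for counting, left out 1 mutant as an outlier, and dropped genes that did not reach 75 reads in at least 2 samples of either genotype. The strand setting of the counting and the annotation release are not given in the sources used here. The deposited values are CPM, which sum to 1000000 per library. All of them (100%) were whole multiples of 1 step within 0.001 of a step, taken as 1 read, which gave the depths. Mutant 3 is not analysed here.

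Log2(CPM + 0.1) was fitted with limma 3.58.1 under R 4.3.3, using its moderated test with an intensity trend, for genes that reached 2.2 CPM in at least 2 samples of either genotype, with Benjamini-Hochberg adjustment over the 17126 genes kept. Fold changes are on that scale, and p-values measure the spread between these mice. Symbols and coordinates came from GENCODE M39 (17045 of 17127 genes, 99.5%) and promoter windows from RefSeq.

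The genes and lists were chosen with earlier results of these data known. Full statistics were given for PIWI genes and for up to 5 called genes per direction with the largest changes. Of the other pathway genes, the 5 largest called changes per direction, Mybl1 and Ddx25 were named. Ratios between genes, level classes and single libraries were chosen after their values were seen. Alternatives were other pseudocounts and minimums, size factors, a replicate block and each library left out. Figures used matplotlib 3.10.9 and summaries Python 3.11.15, NumPy 2.4.6 and pandas 2.3.3. Isoforms and piRNAs themselves are not analysed here.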

Additional observations from a re-analysis of the deposited data

Results flagged for a closer look

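In 3 of 41 genes checked, a wild-type library stood apart from the other 3 by Dixon's ratio (the gap to the nearest library over the range of the group, at the 95% critical value for 4 libraries), where chance gives about 1 in 20 groups. Mael had 1123 CPM in wild-type mouse 3, against 1095 to 1100 CPM in the others (ratio 0.837). Tdrd6 had 885 CPM in the same mouse, against 824 to 832 CPM (ratio 0.872). Gtsf1 had 263 CPM in wild-type mouse 1, against 278 to 281 CPM (ratio 0.837). In each of the 3 genes all mutant values lay below the whole wild-type range. Their decreases were called in 7 of 7 fits with 1 library left out, with log2 fold changes of -0.18 to -0.17 for Mael, -0.20 to -0.16 for Tdrd6 and -0.29 to -0.26 for Gtsf1.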

How the results depend on the processing

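With a pseudocount of 1 or 0.01 CPM or no minimum, all 41 named genes kept their direction and their side of the threshold, and with a minimum of 5 CPM 40 did, Dnmt3c not being tested. After size factors 21 did, 7 passed the threshold in the same direction, 5 lost it and 8 changed sign: Piwil2 (-0.0011), Fkbp6 (-0.085), Mov10l1 (-0.012), Tdrd9 (-0.084), Tdrd1 (-0.10), Tdrkh (-0.076), Asz1 (-0.13) and Tex19.1 (-0.085). The piRNA pathway genes called numbered 11 lower and 0 higher, with a median of -0.11, and the other pathway genes 9 lower and 4 higher. Size factors shift all genes by about -0.13 by construction.

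With 1 library left out, the pathway genes called lower numbered 4 to 5 and higher 2 to 4 (2 without mutant 2 or mutant 4), the other pathway genes 5 lower and 8 to 12 higher, and the median ran from -0.0099 (without mutant 2) to 0.033. Signs changed for Asz1 (-0.026 to 0.050), Tdrd5 (-0.070 to 0.010), Tex19.1 (-0.0030 to 0.099) and Tex15 (-0.13 to 0.012). Same-numbered libraries did not deviate together (r = 0.026, 0.0094 and -0.098 for numbers 1, 2 and 4), and differently numbered ones ran from -0.061 to 0.073. The labels give no pairing, and these values cannot show whether same-numbered libraries share more than a number. With the number as a replicate block, 4 pathway genes were lower and 2 higher, and Tdrd7, Pnldc1, Wdr77 and Dnmt3c lost their calls without changing sign; that fit drops wild-type mouse 3, which has no numbered partner. Count models (edgeR, DESeq2) were planned and not run.

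With 3 mutants and the deposited CPM, the half-width of the 95% interval of a pathway gene ran from 0.072 (Mael) to 0.27 (Btbd18) on the log2 scale. The median was 0.13, which limits the change each could show.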
